A study of Mus musculus with 6 samples.

Results

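The microRNAs (miRNAs) miR-146a (mmu-miR-146a on the array) and miR-146b (mmu-miR-146b) were chosen by name from the 611 mouse miRNAs on the array, 2 in all. They were followed in macrophages grown from the bone marrow of C57BL/6 females. Both were detected on all 6 arrays and were among the 135 miRNAs tested. The 3 knockout samples came from mice with floxed RBP-J on both alleles (MxCre-RBP-Jf/f) and the 3 control samples from mice with 1 floxed and 1 intact allele (MxCre-RBP-Jf/+). The sample titles call the controls wild type. Both groups carried MxCre, Cre recombinase under an interferon-responsive promoter, and had been induced with poly(I)-poly(C). All macrophages then received lipopolysaccharide (LPS), the bacterial outer-membrane component sensed by Toll-like receptor 4, for 24 h, and no sample without LPS was analysed here. Replicates are numbered in the titles, but nothing says whether separate animals or cultures stand behind the numbers, so p-values measure the spread between these samples, which may be technical. Loss of RBP-J could not be checked, since a miRNA array reads no mRNA.

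RBP-J binds DNA and, joined by the cleaved part of an activated Notch receptor, switches Notch target genes on. Transcription of miR-146a is switched on by NF-κB after Toll-like receptor activation, and the mature miRNA represses the adaptors TRAF6 and IRAK1, which carry that receptor's signal, so that it acts as a feedback brake. miR-146b comes from a separate gene and shares the main target-recognition sequence of miR-146a.

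The mature sequences of the members are printed to show how closely they resemble each other, 5′ to 3′, with the seed in capitals. The seed, bases 2 to 8, is the main part, though not the only one, that pairs with target mRNAs. Sequences and positions are RefSeq's, build GRCm38.p6, and the array's names without an arm were read as the 5p arms.
miR-146a-5p: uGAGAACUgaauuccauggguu
miR-146b-5p: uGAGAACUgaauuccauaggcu
Both are 22 bases long and identical over the first 17 bases from the 5′ end. Counted from that end, they differ at 2 positions, by G18A and U21C, with the base of miR-146a first. Of 1679 mature mouse miRNAs in the RefSeq table, these 2 were the only ones with the seed GAGAACU.

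The hairpins, from which the mature forms are cut, come from separate chromosomes and are shown with the mature 5p arm in capitals.
Mir146 (miR-146a), chr11:43374397-43374461, minus strand: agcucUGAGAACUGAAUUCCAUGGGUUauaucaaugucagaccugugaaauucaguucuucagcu
Mir146b, chr19:46342762-46342870, plus strand: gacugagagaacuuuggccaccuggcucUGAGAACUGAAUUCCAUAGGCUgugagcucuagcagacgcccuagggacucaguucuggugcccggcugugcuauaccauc
The hairpins are 65 and 109 bases long. In the RefSeq gene table Mir146 overlapped no other gene and lay between Atp10b and Gm5782. Mir146b overlapped the predicted gene Gm36493 and lay between Cuedc2 and 2310034G01Rik.

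All 6 arrays, 1 per sample and read in 1 colour, lay on 1 slide. Slide columns and rows named below are read from the numbers that end each array's barcode, and this reading was not checked. Between 127 and 141 miRNAs were well above background on an array, and no miRNA spot was saturated. The knockout arrays were dimmer as a whole. The 75th percentile of signal over the 200 probes detected on every array, used below to scale the arrays, had a control mean of 294 ± 55.1 (SD, n = 3) intensity units and a knockout mean of 213 ± 23.2 (SD, n = 3), a ratio of 0.724 (two-sided exact permutation p = 0.1, the smallest that 3 against 3 arrays can give). All 6 listed macrophage and myeloid miRNAs, miR-146a among them, were detected on every array, with a summed scaled signal of 125 to 150 in control and 127 to 152 in knockout. Most of that sum was miR-21, and the 4 listed miRNAs other than miR-21 and miR-146a summed to 12.8 to 19.5 in control and 12.7 to 16.9 in knockout. None of 18 listed markers of 6 other kinds of cell, such as miR-150 of lymphocytes, miR-451 of erythroid cells and miR-126-3p of endothelium, was detected on any array. These are bulk RNA samples, in which fewer cells of a type and less RNA per cell cannot be told apart.

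Each miRNA was read by 2 probes, with 10 spots per probe on every array. All 60 spots of each of the 4 probes were well above background, and the scanner software set an outlier flag on 2 spots of A_54_P2006 and 1 of A_54_P2317, which were left out. The brighter miR-146a probe, A_54_P2317, had median intensities of 1193, 546 and 1198 on control arrays 1, 2 and 3 and of 776, 519 and 1110 on knockout arrays 1, 2 and 3. Its dimmer partner, A_54_P2318, stood at 234, 107 and 237 in control and at 155, 97.6 and 220 in knockout. Both probes put the arrays numbered 2 lowest in each genotype.

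For miR-146b the brighter probe, A_54_P2006, had median intensities of 438, 440 and 578 on the control arrays and of 364, 289 and 320 on the knockout arrays. Its dimmer partner, A_54_P2005, stood at 90.2, 95.5 and 123 in control and at 78.0, 61.8 and 65.3 in knockout. On these unscaled intensities both miR-146b probes were lower on every knockout array than on any control array, as were 37 of the 135 tested miRNAs (27.4%). The miR-146a groups overlapped.

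**Figure D1:**
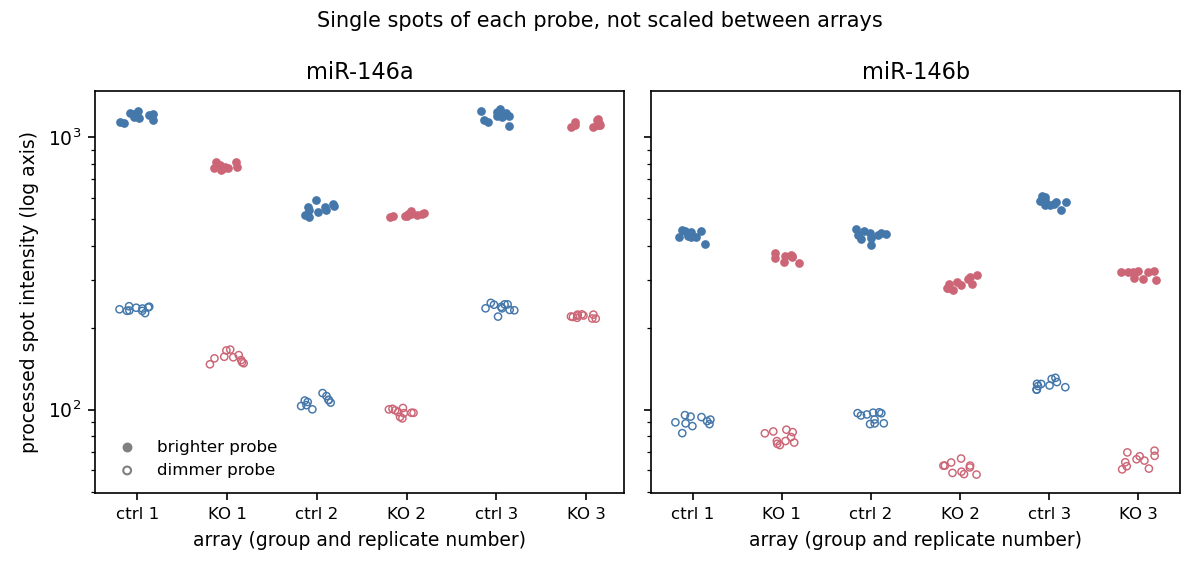
Processed intensity of single spots (log axis) of the brighter and dimmer probe of miR-146a and miR-146b on each of the 6 arrays, before scaling. Spots of a probe lie close together on an array, and the brighter probe runs parallel to the dimmer one from array to array.

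The probes of each miRNA agreed closely. The brighter miR-146a probe exceeded the dimmer one by 2.32 to 2.41 on the log2 scale over the 6 arrays, with an SD of 0.030. For miR-146b the gap ran from 2.20 to 2.29, with an SD of 0.034. Spots of a probe varied within an array by an SD of 0.020 to 0.080 (log2), over all 4 probes and 6 arrays. Scaled signal of the brighter miR-146a probe varied between arrays by an SD of 0.40, against a median spot SD of 0.041. That of the brighter miR-146b probe varied by 0.12, against 0.050. Spots and probes on an array share its RNA and its hybridisation, so the spot SDs and probe gaps describe reading error and not the error between samples.

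The software's gene-level total, which adds up its own value for each probe of a miRNA and is not on the scale of single spots, gave the same order of arrays for miR-146b and, for miR-146a, the same order except that control arrays 1 and 3 changed places. miR-146a totals were 943, 433 and 929 intensity units in control and 622, 409 and 906 in knockout, with means of 768 ± 290 (SD, n = 3) and 646 ± 249 (SD, n = 3). miR-146b totals were 351, 352 and 455 in control and 292, 234 and 257 in knockout, with means of 386 ± 59.5 (SD, n = 3) and 261.0 ± 29.5 (SD, n = 3). The software's own error was 8.44% to 8.58% of each of these totals.

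The comparison of knockout with control reads how miRNA levels differ by RBP-J genotype in macrophages given LPS. Dependence on Notch signalling itself was not tested. Levels are given from here on as log2 signal of the brighter probe relative to the array's 75th percentile, and differences as knockout minus control from a fit over all 135 tested miRNAs (limma, Benjamini-Hochberg adjustment, threshold 0.05). That fit called 0 of the 135 (0%), and 6 (4.44%) had an unadjusted p under the threshold, neither member among them.

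miR-146a, the feedback inhibitor of Toll-like receptor signalling, stood at 2.05, 1.17 and 1.77 on control arrays 1, 2 and 3 and at 1.77, 1.48 and 2.30 on knockout arrays 1, 2 and 3. Knockout array 3 was highest and control array 2 lowest, and the genotypes overlapped. Control averaged 1.66 ± 0.45 (SD, n = 3) and knockout 1.85 ± 0.42 (SD, n = 3). The difference of 0.19 (SE 0.28) did not pass the test (limma adjusted p = 0.776). Its 95% interval ran from -0.46 to 0.83, so that knockout signal was 1.14-fold that of control with bounds of 0.726 and 1.78. The spread of miR-146a within a genotype, 0.43 as a pooled SD, was the 18th widest of the 135, against a median of 0.23.

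miR-146b stood at 0.61, 0.86 and 0.71 on control arrays 1, 2 and 3 and at 0.68, 0.63 and 0.50 on knockout arrays 1, 2 and 3. Control arrays 2 and 3 lay above all knockout arrays, and control array 1 lay below knockout arrays 1 and 2, so that the genotypes overlapped. Control averaged 0.73 ± 0.13 (SD, n = 3) and knockout 0.61 ± 0.09 (SD, n = 3). The difference of -0.12 (SE 0.16) did not pass the test (limma adjusted p = 0.748). Its 95% interval ran from -0.48 to 0.24, a knockout signal of 0.920-fold that of control with bounds of 0.719 and 1.18. Its pooled SD of 0.11 was the 124th of the 135 in order from the widest, so miR-146b varied far less from sample to sample than miR-146a did.

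**Figure D2:**
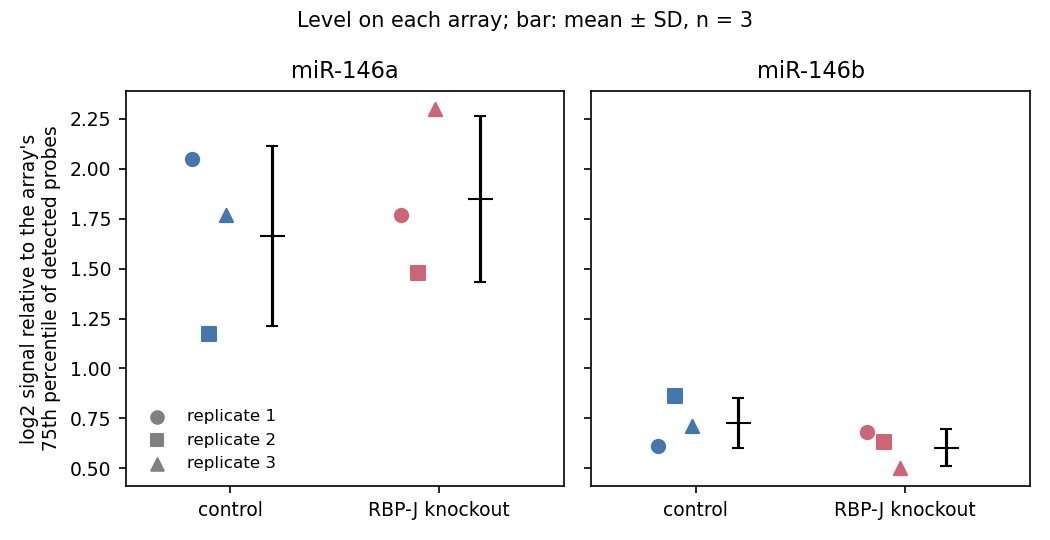
Level of miR-146a and miR-146b on each array, as log2 signal relative to the array's 75th percentile of detected probes, with the mean ± SD of 3 arrays per genotype. miR-146a spans 1.17 to 2.30 and miR-146b 0.50 to 0.86, and the genotypes overlap in both.

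Fitted on its own among 251 probes, each probe gave nearly the difference of its partner. The miR-146a probes stood at 0.19 (SE 0.28) and 0.18 (SE 0.29), and the miR-146b probes at -0.12 (SE 0.15) and -0.13 (SE 0.16). The 4 probes were not called (limma adjusted p = 0.808 and 0.816 for miR-146a, and 0.753 for both miR-146b probes).

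The direction of the miR-146a difference depended on 2 single arrays and on the scaling. Without control array 2 it was -0.060, and without knockout array 3 it was -0.038. Taken by replicate number, the knockout array stood at -0.28, 0.31 and 0.53 relative to the control array of the same number for replicates 1, 2 and 3. With no scaling between arrays, where the median tested miRNA stood at -0.31, miR-146a stood at -0.27 (limma adjusted p = 0.663).

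The miR-146b difference was negative under every setting tried, from -0.58 to -0.053, and passed under none of those that had a test. Some settings, such as a replicate block or no filter on dim miRNAs, change only the error or the set tested. They leave the difference at -0.12 and say nothing about its sign. By replicate number the miR-146b difference was 0.077, -0.23 and -0.21. With no scaling it was -0.58 (SE 0.19; unadjusted p = 0.0169, limma adjusted p = 0.153), and every control array lay above all knockout arrays. That pattern held for 27.4% of the miRNAs without scaling and, as scaled, for 4 (2.96%), miR-146b not among them. In either direction 14 miRNAs (10.4%) had genotypes that did not overlap as scaled.

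Because the knockout arrays were dimmer, each member was also set against the median tested miRNA, which stood at 0.11 as scaled. Relative to it miR-146b was at -0.23, with 24 of the 135 miRNAs lower. Over 10 other ways of computing and scaling the signal on the same arrays it ran from -0.38 to -0.16, with 9 to 33 miRNAs lower. A change of scale factor alone shifts all miRNAs of an array alike, so settings that differ only in that factor nearly repeat this value. A common factor does not remove an effect that depends on signal level, and such an effect was not tested. The miR-146b value was -0.23 with arrays centred on the median tested miRNA, -0.27 with no scaling and -0.38 with normexp background correction. miR-146a was at 0.08 relative to the median, and ran from -0.12, with normexp background correction, to 0.19. These positions are a description and were not tested.

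**Figure D3:**
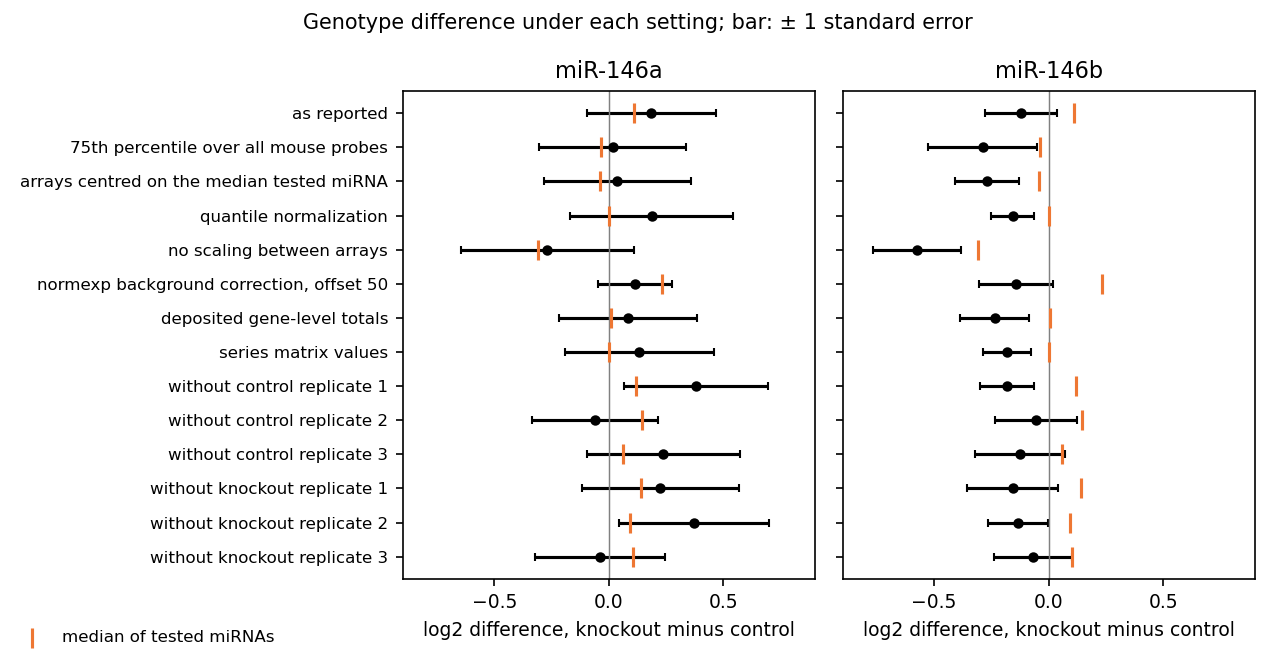
Genotype difference (log2, knockout minus control) of miR-146a and miR-146b with its standard error as reported and under other settings, with the median difference of the tested miRNAs as an upright mark. miR-146a lies on both sides of 0, and miR-146b lies below 0 and below the median mark in each. A change of scale factor alone moves a point and its median mark together.

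A ratio of both miRNAs within an array is free of the array's overall brightness. It is a ratio of probe signals and not of molecules, since the probes were not calibrated against each other, so only its difference between arrays is read. The members differ at 2 of 22 bases, and whether a probe for 1 of them also reads the other was not tested. Probe sequences were not available, and agreement between the probes of a miRNA does not answer this. Any such shared signal would enter the ratio, the levels and the correlation of the members. miR-146a signal was 2.72, 1.24 and 2.07 times that of miR-146b on control arrays 1, 2 and 3, and 2.13, 1.79 and 3.47 times on knockout arrays 1, 2 and 3. The lowest ratio was in a control and the highest in a knockout sample, and the genotypes overlapped.

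On the log2 scale the control ratio averaged 0.94 ± 0.58 (SD, n = 3) and the knockout ratio 1.24 ± 0.49 (SD, n = 3). The difference of 0.31, or 1.24-fold, was smaller than the SD within either genotype (two-sided exact permutation p = 0.5). It was 0.31 with the dimmer probes, 0.32 with the gene-level totals and 0.32 with the authors' series matrix. Without control array 2 it was -0.0062, without knockout array 3 it was 0.030, and without control array 1 it was 0.56. Among the 4 arrays in column 1 of the slide it was 0.087, and between the 2 arrays of column 2 it was 0.74. By replicate number it was -0.36, 0.53 and 0.74.

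**Figure D4:**
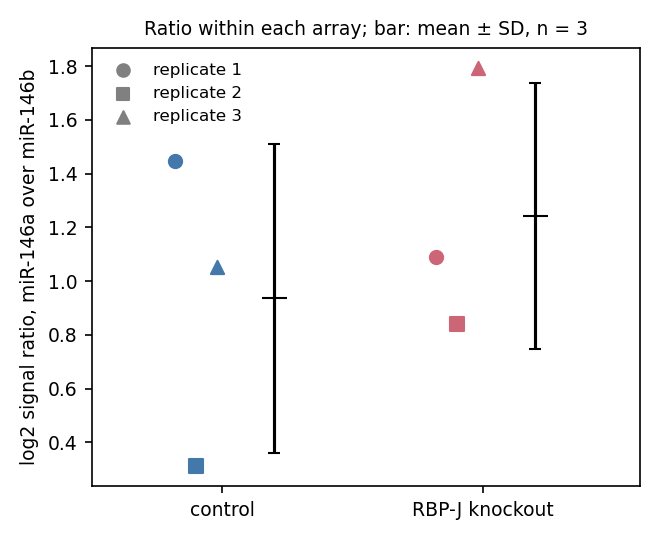
Log2 ratio of miR-146a to miR-146b signal within each array, with the mean ± SD of 3 arrays per genotype. Control arrays run from 0.31 to 1.45 and knockout arrays from 0.84 to 1.79.

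How the members varied relative to each other from sample to sample depended on the scaling. As scaled, arrays with more miR-146a had less miR-146b, with Pearson's r = -0.878 over the 6 arrays (exact permutation p = 0.0264, adjusted p = 0.185 over 7 ways of scaling) and Spearman's rho = -0.829 (exact permutation p = 0.0583, adjusted p = 0.408). Without control array 2 and knockout array 3, farthest from the miR-146a median, r was -0.237 over 4 arrays. Those arrays were picked by the values being correlated, and leaving out the ends of a range tends to weaken r. This value therefore does not show what the relation rests on. The sign of r turned with the scaling. With no scaling r was 0.457 (exact permutation p = 0.354), with quantile normalization -0.0830 (exact permutation p = 0.881) and in the series matrix -0.555 (exact permutation p = 0.283). The other ways gave 0.0451 with the 75th percentile over all mouse probes (exact permutation p = 0.938), -0.196 with arrays centred on the median tested miRNA (exact permutation p = 0.676) and -0.517 with scaled gene-level totals (exact permutation p = 0.278). Values of an array share its scale factor, and with 3 arrays per genotype no value is given within a genotype.

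As a description over the 6 arrays, the tested miRNAs with the pattern most like that of miR-146a were miR-690 (r = 0.927), miR-425 (r = 0.793), let-7g (r = 0.728), miR-34a (r = 0.724) and let-7a (r = 0.690). The median r with all other tested miRNAs was -0.033. miR-690 stood at -3.31, -4.32 and -3.64 in control and at -3.99, -4.32 and -3.28 in knockout. It was lowest on both arrays numbered 2, where it lay at the floor set for dim signal, -4.32, and it was detected on only 4 arrays. The patterns most like that of miR-146b were those of let-7i (r = 0.891), miR-27b (r = 0.816), miR-24-1* (r = 0.779), miR-221 (r = 0.667) and miR-23b (r = 0.667), against a median of -0.111. Of these, miR-24-1* was dim, from the floor at -4.32 on control array 1 to -3.47, and was detected on 5 arrays. let-7i, the closest, stood at 2.24, 2.35 and 2.30 in control and at 2.34, 2.22 and 2.12 in knockout, a narrow range. By this measure, as scaled, miR-146b was the 132nd of 134 miRNAs in likeness to miR-146a. The r of that pair changed sign with the scaling, as given above. The named miRNAs have the highest of 134 values, each over only 6 arrays, and high values can arise there without any relation. Apart from the pair of members, these likenesses were computed as scaled only, and whether they hold under other scalings was not tested.

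The passenger arm of the miR-146b hairpin, miR-146b*, was not detected on any array. Of the 120 spots of its 4 probes over the 6 arrays, 1 was well above background, and the median intensity of a probe on an array ran from -4.37 to 3.35 units after background subtraction. The other arm of miR-146a was not analysed here.

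Among 18 miRNAs tied to Toll-like receptor or NF-κB signalling, either induced by it or acting on it, 11 were tested and 7 were detected on no array. None rose and none fell by the test, against 0% of all tested miRNAs, and 0 of them had an unadjusted p under the threshold. In the fit 4 stood above and 7 below control, against 97 and 38 of all 135, with a median of -0.07 against 0.11. These signs moved with the scaling. With no scaling 0 stood above and 11 below, against 14 and 121 of all, with medians of -0.52 and -0.31. With arrays centred on the median tested miRNA 0 stood above and 11 below, against 59 and 76 of all, with medians of -0.22 and -0.04. The list median lay below that of all tested miRNAs in every way of computing tried. These ways reuse the same arrays and are not independent of each other. The list was chosen with earlier results of these data known. A change of scale factor alone moves both medians alike, and the gap between them was not tested. miR-155, which NF-κB induces alongside miR-146a, stood at -0.04 (SE 0.20). The smallest p-values belonged to let-7e at -0.47 (SE 0.24), miR-125a-5p at -0.53 (SE 0.30) and miR-221 at -0.40 (SE 0.23), each with a limma adjusted p of 0.637.

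**Figure D5:**
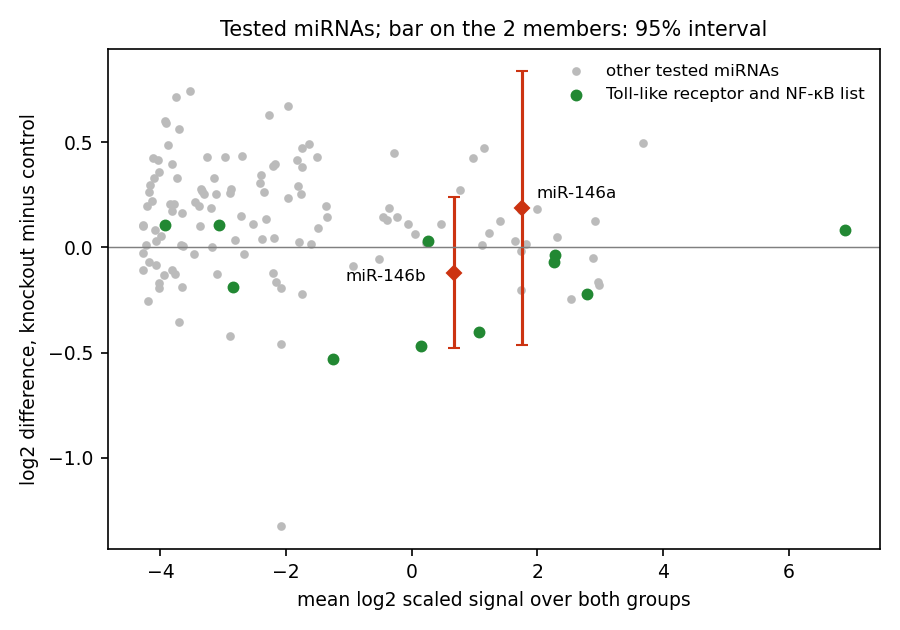
Genotype difference (log2, knockout minus control) against mean scaled log2 signal of the 135 tested miRNAs, with 95% intervals on miR-146a and miR-146b and the Toll-like receptor and NF-κB list in green. Both intervals include 0, and that of miR-146a is the wider.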

How the data were processed

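Cy3-labelled total RNA was read on Agilent mouse miRNA arrays, per the labels. Background had been subtracted from the deposited spot intensity values by Feature Extraction, in version 10.5.1.1 per the file headers and 9.1 per the submitters' processing notes. The authors' series matrix is on a log2 scale: over totals above 5 units its columns followed the log2 gene-level totals (r = 0.999), with column medians from 0 to 0.029. Its normalization between arrays is not stated in the sources used.

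The median over unflagged spots was taken for 1759 mouse probes, divided by the array's 75th percentile over the 200 probes detected on all arrays, floored at the 5th percentile of detected signal (-4.32) and log2 transformed. A probe was detected when at least 50% of its spots were flagged well above background. The brightest probe stood for a miRNA, and miRNAs detected on at least 3 arrays were tested with limma 3.58.1 in R 4.3.3. The procedure was tested on simulated data, and the outcome of that is not given here. Ratios used exact permutation tests. The number of arrays limits the precision.

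Named miRNAs were both members, other arms of their hairpins, the 5 most alike to each member, and the 3 of the list with the smallest p; miR-155 and the cell markers named were added as examples. Members, lists and rules were chosen with earlier results of these data known. Same-numbered arrays were checked for pairing and did not meet the criterion (r = 0.174, -0.072 and 0.373). The normexp alternative used each spot's median pixel signal in place of its mean.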

Additional observations from a re-analysis of the deposited data

How the results depend on the processing

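No setting with a test called either member or any other miRNA; the smallest limma adjusted p of any miRNA was 0.0930, with normexp. The miR-146a difference, 0.19, turned to -0.27 with no scaling and ran from -0.060 to 0.38 when each array was left out. The ratio difference, 0.31, ran from -0.0062 to 0.56 when each array was left out. The miR-146b difference, -0.12, ran there from -0.18 to -0.053. Unadjusted p-values under 0.05 were 5 higher and 1 lower as scaled, 22 and 3 with normexp and 0 and 26 with no scaling. With the replicate number as a block, miR-146a gave 0.19 (SE 0.20, limma adjusted p = 0.700) and miR-146b -0.12 (SE 0.16, limma adjusted p = 0.748), and 0 miRNAs were called. With the replicate block the ratio gave 0.31 (exact sign-flip p = 0.5). With 3 pairs the sign-flip test cannot give a p under 0.05, whatever the values. Of the 6 arrays 4 correlated best with the array of their own number. Within slide column 1 miR-146a stood at 0.013 and miR-146b at -0.074, and within column 2, with 1 array per genotype, at 0.53 and -0.21. Chosen after seeing the data, leaving out control array 1 and knockout array 2 together gave 0.57 for miR-146a and -0.19 for miR-146b, and leaving out both arrays numbered 2 gave 0.13 and -0.067. Each slide row held arrays of 1 genotype, so row and genotype cannot be told apart.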
